A study of Mus musculus with 6 samples.

Results

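The collagen chain genes are the genes that encode the alpha chains of the collagens. Here they were taken as every gene whose symbol is Col, a number, the letter a and a number with nothing after it, which gave 42 of the 25755 genes in the table. Of these, 10 encode chains of fibrillar collagens, 6 encode the chains of type IV collagen, the collagen of basement membranes, and 26 encode chains of other types. RNA was sequenced in bulk from optic nerves of 6 mice with the genotype Nf1flox/flox; hGFAP-Cre, labelled 3 months, 3 after sham surgery (mice 1 to 3) and 3 after optic nerve crush (ON-CR, mice 4 to 6), a surgery performed weeks earlier. The human GFAP promoter drives Cre recombinase in neuroglial progenitors, so that these and their descendants lose Nf1, and both groups carried this deletion. The 6 libraries held no mouse with intact Nf1 and none without surgery, and whether nerves were pooled within a library is not given in the sources used here. The comparison asked which collagen chains differed between crushed and sham-operated nerves that all lacked Nf1 in these cells.

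A collagen is a trimer of alpha chains wound into a triple helix, and the type of collagen is set by which chains are joined. Fibrillar collagens form the cables that bear tension, with type I as the main component and types V and XI inside the fibril, where they set its start and thickness. Type IV collagen forms a flexible sheet under endothelium and around glia and pericytes, whereas types VI, VIII, IX and others form filaments, lattices or coats on fibrils, or span the cell membrane. In the optic nerve, collagens sit mainly in the meningeal sheath, the septa between axon bundles and the vessel walls, and fibrillar collagen is laid down by fibroblasts at sites of central nervous system injury.

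The values are estimated reads per gene divided by 1 factor per library, hereafter called values, so a value of 1 is close to 1 read. Where the values of all libraries are given, they are listed by mouse, sham from 1 to 3 and ON-CR from 4 to 6. Depth in estimated reads was 17414035 to 18978379 after ON-CR and 19892879 to 23620997 after sham surgery, with every ON-CR library shallower than any sham library. The glial genes of the optic nerve were abundant in every library, with Gfap, the intermediate filament of astrocytes, between 99186 and 202957. The 9 fibroblast marker genes summed to 44222 to 50529 in sham and 22061 to 31385 in ON-CR libraries. Gsn, which oligodendrocytes also express, made up most of this sum. Of the 9, 8 had a log2 fold change below 0, and Fbln1 and Gsn fell, with log2 fold changes of -1.07 (SE 0.16, adjusted p = 0.00815) and -0.98 (SE 0.16, adjusted p = 0.0124) by limma. The call of Fbln1 was lost without sham mouse 2 (adjusted p = 0.0571), sham mouse 3 (0.05001) or ON-CR mouse 6 (0.0763), and that of Gsn without sham mouse 1 (0.0644), sham mouse 2 (0.0899) or ON-CR mouse 6 (0.128). Xist, the transcript of the inactive X chromosome, had 16.7, 2.14 and 30.9 in sham and 2708, 6357 and 6131 in ON-CR libraries. The Y-linked Ddx3y had 1645, 1291 and 1544 in sham and 976, 4.19 and 0 in ON-CR libraries. ON-CR mouse 4 held both Xist and Y-linked transcripts, with Eif2s3y, another Y-linked gene, at 363, within its sham range of 358 to 525, and whether this library comes from 1 mouse was not tested. Sex-linked transcripts thus moved with surgery, though not cleanly, and the effects of sex, which the labels do not give, and of surgery cannot be told apart. Libraries of the same group also differed in the airway secretory transcript Bpifa1, with 22.3, 0 and 7568 in sham and 0, 4579 and 5894 in ON-CR libraries, and in the immunoglobulin transcript Igkc, at 83710.3 in ON-CR mouse 6 and at most 1602 elsewhere. In bulk tissue, fewer cells of a type and less RNA per cell cannot be told apart.

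Collagen expression in the optic nerve was dominated by a few chains (the plot of each gene's values by library). Per kilobase of exon, the highest mean levels over the 6 libraries were those of Col1a1, Col6a1, Col1a2 and Col3a1, in this order. Per kilobase, Col1a1 stood at 688 in sham and 429.8 in ON-CR nerves, and Col6a1 at 549.6 in sham and 418 in ON-CR nerves. These 4 genes made up 66.8% ± 3.00 of the summed level per kilobase of all 42 in sham nerves and 61.7% ± 3.94 in ON-CR nerves (SD, n = 3). They were followed by Col6a2, the membrane-spanning Col23a1, Col8a1, Col4a1, Col8a2 and Col25a1. At the other end, 7 genes had a mean value under 10, namely Col6a5, Col6a6, Col7a1, Col10a1, Col17a1, Col19a1 and Col28a1, and Col19a1 did not exceed 3 reads in any sham library. For these 7 the depth does not allow a difference of a few reads to be resolved.

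**Figure D1:**
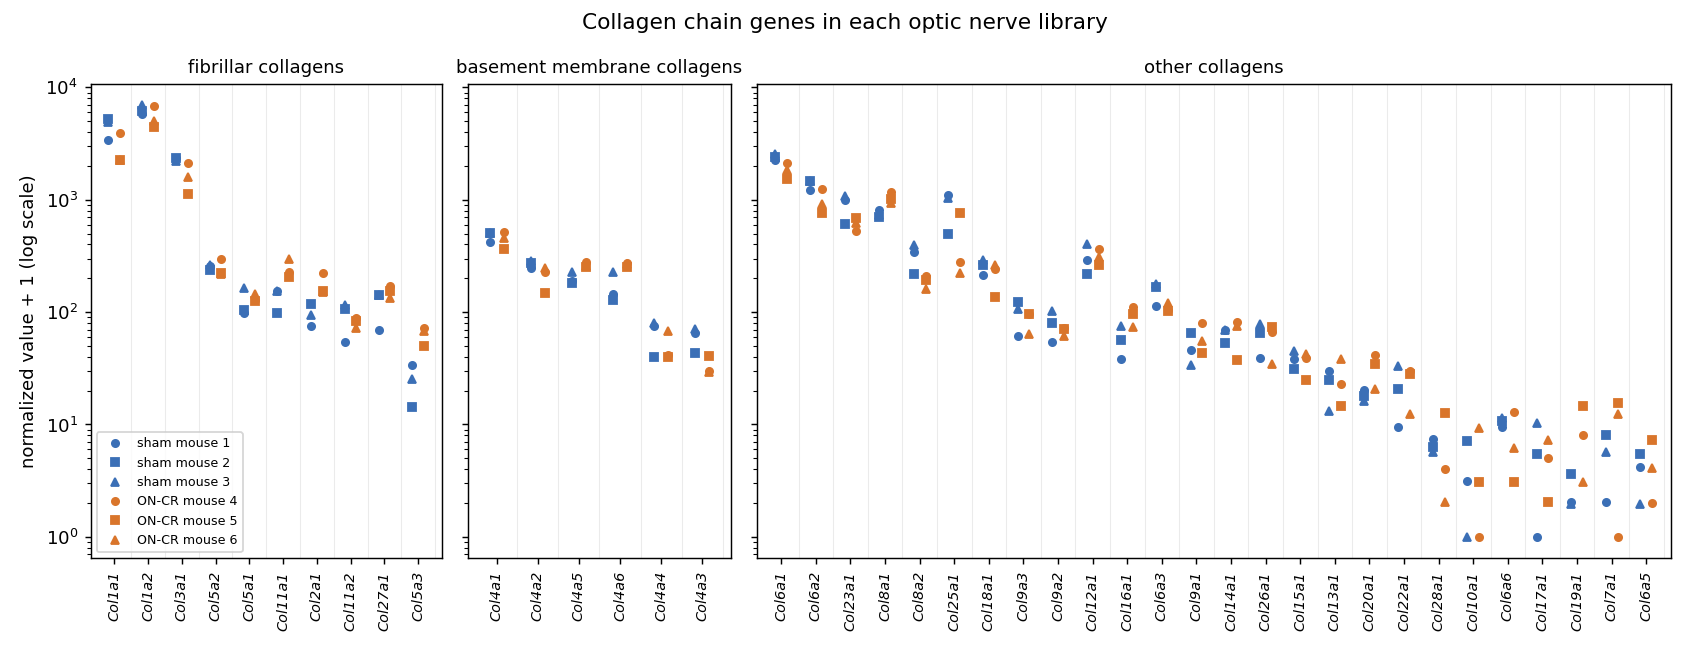
Normalized value plus 1 (log axis) of each of the 42 collagen chain genes in each library, in 3 panels for fibrillar, basement membrane and other collagens, with genes ordered by their mean level per kilobase. Blue points are the 3 sham mice and orange points the 3 ON-CR mice. Col1a1, Col1a2, Col3a1 and Col6a1 lie above 1000 in every library, and 7 genes have a mean under 10.

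No collagen chain gene passed an adjusted p of 0.05 by limma, against 2.1% of all genes (540 of 25755). Of all genes, 0.971% were called higher and 1.13% lower after ON-CR, which is 250 and 290 genes, or 421 and 195 with scaling by library size alone. The lowest adjusted p was 0.0918, for Col5a3. At an unadjusted p of 0.05, 15 of the 42 (35.7%) passed, against 15.6% of all genes, with 7 higher (7.37% of all genes) and 8 lower (8.22% of all genes) after ON-CR. In 12 of the 42 (28.6%) sham and ON-CR values did not overlap, against 21.6% of all genes (10.5% higher and 11% lower). The 7 with every ON-CR library above every sham library were Col2a1, Col5a3, Col11a1, Col4a5, Col4a6, Col8a1 and Col20a1. The 5 with every ON-CR library below every sham library were Col3a1, Col4a2, Col4a3, Col6a1 and Col8a2. Both shares lay above those over all genes, and whether they differ from what other genes of the same abundance give was not tested. The median log2 fold change was -0.06 over the 42, with 19 above 0 and 23 below, beside 0.03 over all genes, of which 52.8% were above 0. With scaling by library size alone, in which the median of all genes was 0.15, 25 collagen genes were above 0 and 17 below, and the collagen median was 0.07, or -0.09 relative to that of all genes, as in the deposited scaling. In that scaling 1 collagen gene, Col8a1, passed (adjusted p = 0.0413). The fit without ON-CR mouse 4 called Col1a1 and Col3a1, and the fit without ON-CR mouse 5 called Col25a1, as given with each gene.

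**Figure D2:**
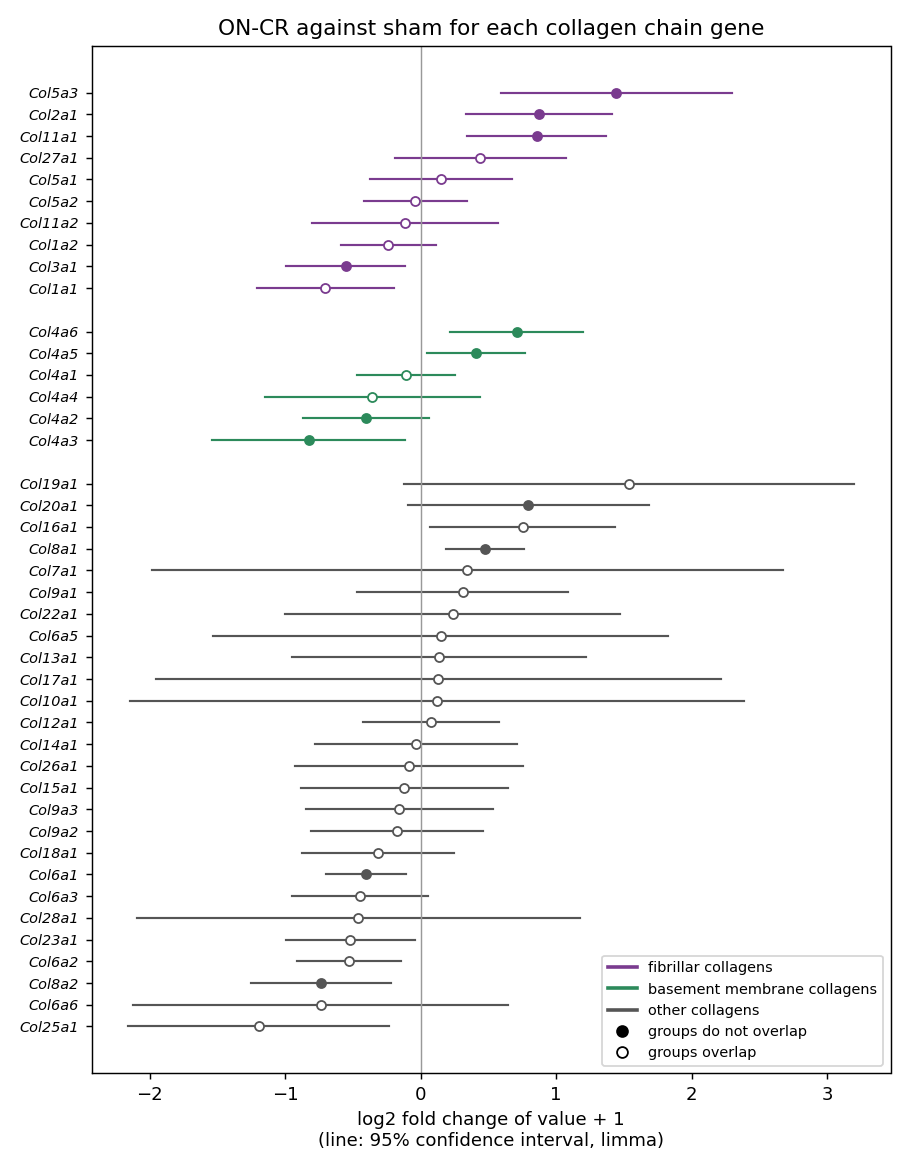
Log2 fold change of value plus 1, ON-CR against sham, for the 42 collagen chain genes, grouped by class and ordered by size, with 95% confidence intervals from limma as lines. Filled points mark the 12 genes whose groups do not overlap. Within the fibrillar class the points run from 1.44 (Col5a3) to -0.70 (Col1a1), and within the basement membrane class from 0.71 (Col4a6) to -0.83 (Col4a3).

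Among the fibrillar collagens, the abundant chains of types I and III were lower in mean after ON-CR and the scarcer Col2a1, Col5a3 and Col11a1 were higher, with none past the adjusted threshold, whereas Col5a2 and Col11a2, of the same types V and XI, had log2 fold changes just below 0. Of the 10 genes, 5 had a log2 fold change above 0 and 5 below, with a median of 0.06. Sham and ON-CR values did not overlap in 4, of which 3 were higher and 1 was lower, against 21.6% of all genes (10.5% higher and 11% lower).

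Type I collagen is the main fibrillar collagen of the meninges, of scar and of most connective tissue. Its chain gene Col1a1 (ENSMUSG00000001506.10, chr11:94936224-94953042, GRCm38) had values of 3398, 5237 and 4906 in sham and 3924, 2258 and 2281 in ON-CR libraries. ON-CR mice 5 and 6 lay below every sham library and ON-CR mouse 4 lay within the sham range. The Y-linked Ddx3y split the ON-CR mice in the same way, with 976 in mouse 4 and 4.19 and 0 in mice 5 and 6. The part of sex in the values of Col1a1, and of other collagens with this split, was not tested. The log2 fold change was -0.70 (SE 0.23, adjusted p = 0.162), and without ON-CR mouse 4 it was -0.97, past the threshold (adjusted p = 0.0326). Without mice 5 and 6 it was -0.18 (adjusted p = 0.853). Col1a2 (ENSMUSG00000029661.16, chr6:4504814-4541544), which encodes the other chain of type I collagen, had 5843, 6152 and 6944 in sham and 6813, 4431 and 5027 in ON-CR libraries. ON-CR mice 5 and 6 were again the lowest, and ON-CR mouse 4 was among the highest. Its log2 fold change was -0.24 (SE 0.16, adjusted p = 0.512), with a 95% interval of -0.59 to 0.11, and it was 0.11 without mice 5 and 6. Col3a1 (ENSMUSG00000026043.18, chr1:45311538-45349706), the chain of type III collagen, which is found with type I in extensible tissue and in early scar, had 2332, 2352 and 2214 in sham and 2146, 1124 and 1597 in ON-CR libraries. Every ON-CR library lay below every sham library, but mouse 4 only by a small margin. The log2 fold change was -0.55 (SE 0.20, adjusted p = 0.205), and without ON-CR mouse 4 it was -0.78 (adjusted p = 0.0472). Without ON-CR mouse 5 it was -0.31, and without mice 5 and 6 it was -0.10 (adjusted p = 0.840). An exon of Col3a1 overlaps the gene model Gm47302 on the same strand, so reads could have been split between them. The fibroblast markers given above, mostly Gsn, were lower in sum in every ON-CR library, lowest in mouse 5 and highest of the ON-CR group in mouse 4. Of the single markers, Gsn, Ogn and Mfap5 had this order of ON-CR mice, and Dcn, Lum, Dpt, Fbln1, Pi16 and Clec3b did not. Ogn in mouse 4 (3865) lay above every sham value, and Lum was lowest in mouse 4 (260). The part of these markers in the type I and III values was not tested.

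Col5a3 (ENSMUSG00000004098.7, chr9:20770050-20815067) encodes a chain of a minor form of type V collagen, the collagen inside type I fibrils. Its values were 32.9, 13.3 and 24.4 in sham and 70.8, 49.3 and 67.5 in ON-CR libraries. The lowest ON-CR library was above the highest sham library, at low counts in all 6. The log2 fold change was 1.44 (SE 0.38, adjusted p = 0.0918), the largest of the 10 fibrillar genes. Col11a1 (ENSMUSG00000027966.20, chr3:114030540-114220718), a chain of type XI collagen that is related to the type V chains and best known from cartilage, had 154, 97.4 and 152 in sham and 228, 204 and 294 in ON-CR libraries. The groups did not overlap, and the log2 fold change was 0.86 (SE 0.23, adjusted p = 0.0954). Col2a1 (ENSMUSG00000022483.17, chr15:97975602-98004695), the chain of the type II collagen of cartilage and of the vitreous of the eye, had 74.3, 116 and 93.9 in sham and 221, 152 and 151 in ON-CR libraries. The groups did not overlap, and ON-CR mouse 4 was the highest. The log2 fold change was 0.88 (SE 0.24, adjusted p = 0.105).

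Cartilage and bone markers, 12 genes, summed to 1417 to 1590.4 in sham and 1606 to 2043 in ON-CR libraries. Acan, the defining proteoglycan of cartilage, was at 2.82 to 20.2 in sham and 6.23 to 12.6 in ON-CR libraries, Matn3 was at 0 to 7.43 and the bone gene Ibsp at 0 to 4.24 over all 6. Of the 12, the 1 with every ON-CR value above every sham value was Cnmd, an inhibitor of vessel growth, with 569.8, 642 and 812 in sham and 1046, 938 and 1269 in ON-CR libraries and a log2 fold change of 0.69 (SE 0.16, adjusted p = 0.0667). The 1 with every ON-CR value below every sham value was Dmp1, a bone matrix protein, with 301, 499.6 and 259 in sham and 193, 163 and 109.6 in ON-CR libraries and a log2 fold change of -1.16 (SE 0.28, adjusted p = 0.0670). Over the 12, 8 had a log2 fold change above 0, from 0.04 to 2.74 (Bglap, a bone gene with groups that overlap), and 4 below, and none passed the threshold. The part of these markers in the values of Col2a1 and Col11a1 was not tested. In the other fibrillar genes the groups overlapped. Col5a1 and Col5a2, the chains of the common form of type V collagen, had log2 fold changes of 0.15 (SE 0.23, adjusted p = 0.812) and -0.04 (SE 0.17, adjusted p = 0.942). Col11a2 and Col27a1, the latter a fibrillar chain of developing cartilage, had log2 fold changes of -0.11 and 0.44, with adjusted p of 0.901 and 0.503.

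The 6 type IV genes lie in 3 head-to-head pairs, Col4a1 with Col4a2, Col4a3 with Col4a4 and Col4a5 with Col4a6. Both genes of the Col4a5 and Col4a6 pair were higher in every ON-CR library than in every sham library. The genes of the other pairs had log2 fold changes below 0, except that Col4a1 turned to 0.02 with scaling by library size alone and to 0.03 without ON-CR mouse 5. The median over the 6 was -0.23, with 4 genes whose groups did not overlap, 2 higher and 2 lower, against 21.6% of all genes (10.5% higher and 11% lower). None of the 6 passed the adjusted threshold.

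The starts of Col4a5 and Col4a6 are 1343 bases apart in RefSeq (GRCm38.p6), and those of Col4a1 and Col4a2 are 21 bases apart, with the genes of each pair transcribed away from each other. The 150 bases before the RefSeq start of each gene of the X-linked pair are shown because these were the basement membrane chains with higher values after ON-CR. They are written from 5′ to 3′ on the strand of the gene, and capitals mark GGGCGG or its reverse complement CCGCCC, the letters of a GC box.
Col4a5 (chrX:141475269-141475418, plus strand): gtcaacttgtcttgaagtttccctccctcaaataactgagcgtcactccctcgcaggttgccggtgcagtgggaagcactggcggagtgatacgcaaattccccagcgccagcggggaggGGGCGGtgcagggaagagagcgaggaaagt
Col4a6 (chrX:141474077-141474226, minus strand): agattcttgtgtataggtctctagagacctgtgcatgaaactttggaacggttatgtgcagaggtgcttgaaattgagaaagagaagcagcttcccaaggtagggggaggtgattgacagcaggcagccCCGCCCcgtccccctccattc
The GENCODE position of Col4a5 starts at 141475385, inside its printed stretch. The GGGCGG there thus lies before the RefSeq start but within the GENCODE gene. The motif occurred 1 time in each of these 2 stretches, as GGGCGG for Col4a5 and as CCGCCC for Col4a6. Over the windows from 250 bases before to 50 bases after the start that RefSeq gave for 33 of the 42 collagen genes, it was present on either strand in 22 of 36 windows (61.1%), against 35.7% of the windows of all genes. Of 3 other motifs searched on both strands, TATAAA was found in 13.9% of collagen windows and 13.6% of all windows, CCAAT in 33.3% and 37.4%, and TGANTCA, the letters of an AP-1 site, in 2.78% and 7.81%. These matches describe letters in a window and not sites of binding.

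Col4a1 (ENSMUSG00000031502.11, chr8:11198423-11312826) and Col4a2 (ENSMUSG00000031503.13, chr8:11312805-11449287) encode the chains of the type IV collagen found in nearly every basement membrane. Col4a1 had 420.2, 509 and 502 in sham and 517, 364 and 454 in ON-CR libraries, groups that overlap. Its log2 fold change was -0.11 (SE 0.16, adjusted p = 0.806), with a 95% interval of -0.47 to 0.25. Col4a2 had 247, 272 and 282 in sham and 227, 147 and 244 in ON-CR libraries, and ON-CR mouse 5 was far below the other ON-CR mice. The groups did not overlap, by a narrow margin, and the log2 fold change was -0.40 (SE 0.21, adjusted p = 0.385), or -0.18 without ON-CR mouse 5. The exons of these 2 genes overlap on opposite strands, and the strand setting of the read counting is not given in the sources used here.

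Col4a3 and Col4a4 encode chains of the type IV collagen of the kidney filter, the inner ear and the eye, which are joined with the Col4a5 chain. Col4a3 (ENSMUSG00000079465.8, chr1:82586921-82722059) had 64.0, 42.3 and 69.0 in sham and 28.9, 39.8 and 28.0 in ON-CR libraries. The highest ON-CR value was just below the lowest sham value, and the log2 fold change was -0.83 (SE 0.32, adjusted p = 0.246). An exon of Col4a3 overlaps C430014B12Rik on the opposite strand. Col4a4 had a log2 fold change of -0.36 (SE 0.36, adjusted p = 0.687) and groups that overlap.

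Col4a5 (ENSMUSG00000031274.16, chrX:141475385-141689234) had 188, 179 and 228 in sham and 278, 253 and 256 in ON-CR libraries. The ON-CR values lay close together and above all sham values, with a log2 fold change of 0.41 (SE 0.16, adjusted p = 0.262). Col4a6 (ENSMUSG00000031273.16, chrX:141165403-141474076), whose chain joins that of Col4a5 in the basement membrane of smooth muscle, had 144, 127 and 225 in sham and 271, 249.5 and 269 in ON-CR libraries. Sham mouse 3 was the highest of its group, near the ON-CR values, and the log2 fold change was 0.71 (SE 0.22, adjusted p = 0.146). Both genes lie on the X chromosome, and every ON-CR library had higher Xist than every sham library. Of 901 X-linked genes in the table, 91 were higher in every ON-CR library and 69 lower. This was 17.8% in all, against 21.6% of all genes (10.5% higher and 11% lower). Of the 901, 519 had a log2 fold change above 0 and 382 below, beside 52.8% above 0 over all genes. Their median log2 fold change was 0.07, beside 0.03 over all genes. The part of sex in the values of Col4a5 and Col4a6 was not tested. Smooth muscle and pericyte markers, 8 genes, summed to 14448 to 16322 in sham and 11323 to 15928 in ON-CR libraries, and none passed the threshold. The 7 endothelial markers summed to 3200.0 to 3671 and 2922 to 3599, with none past the threshold.

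Among the 26 other collagens, the 2 chains of type VIII collagen stood at opposite sides of sham and the main chains of type VI collagen, from Col6a1, Col6a2 and Col6a3, were lower in mean. The median log2 fold change was -0.06, with 12 above 0 and 14 below. In 4 of the 26 sham and ON-CR values did not overlap, a share of 15.4% against 21.6% of all genes, and of these Col8a1 and Col20a1 were higher and Col6a1 and Col8a2 lower.

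Type VIII collagen builds hexagonal lattices under the corneal endothelium and in vessel walls. Col8a1 (ENSMUSG00000068196.5, chr16:57624258-57754737) had 818, 703 and 731 in sham and 1173, 1020.0 and 939.7 in ON-CR libraries. All ON-CR values lay above all sham values. The log2 fold change was 0.47 (SE 0.13, adjusted p = 0.101), and with scaling by library size alone it was 0.60, or 0.45 above the median of all genes. Col8a2 (ENSMUSG00000056174.8, chr4:126286793-126314330), the second chain of this collagen, had 344, 216 and 395 in sham and 208, 191 and 159 in ON-CR libraries. All ON-CR values lay below all sham values, with sham mouse 2 close to ON-CR mouse 4, and the log2 fold change was -0.74 (SE 0.23, adjusted p = 0.151). The 150 bases before each RefSeq start are shown, with GGGCGG and CCGCCC in capitals, because the chains of 1 collagen stood on opposite sides.
Col8a1 (chr16:57754738-57754887, minus strand): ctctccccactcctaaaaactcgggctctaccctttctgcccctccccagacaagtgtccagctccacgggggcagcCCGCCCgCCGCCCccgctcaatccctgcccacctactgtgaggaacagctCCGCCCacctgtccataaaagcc
Col8a2 (chr4:126286644-126286793, plus strand): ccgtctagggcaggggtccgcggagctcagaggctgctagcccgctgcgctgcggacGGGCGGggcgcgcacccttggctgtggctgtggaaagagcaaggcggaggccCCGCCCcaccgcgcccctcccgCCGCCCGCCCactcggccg
CCGCCC occurred 3 times in each of the 2 stretches, overlapping copies counted, and GGGCGG 1 time, in that of Col8a2.

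Type VI collagen forms beaded filaments around cells, at the border between basement membrane and fibrils, and is made of chains from Col6a1, Col6a2 and Col6a3 or its relatives. Col6a1 (ENSMUSG00000001119.7, chr10:76708792-76726168) had 2274, 2383 and 2564 in sham and 2105, 1531 and 1859 in ON-CR libraries. Every ON-CR value was below every sham value, and the log2 fold change was -0.40 (SE 0.13, adjusted p = 0.169). Col6a2 (ENSMUSG00000020241.13, chr10:76595762-76623630) had 1224, 1465 and 1465 in sham and 1236, 763 and 923 in ON-CR libraries. ON-CR mouse 4 reached the lowest sham mouse, so the groups overlapped, and the log2 fold change was -0.53 (SE 0.17, adjusted p = 0.166). Col6a3 (ENSMUSG00000048126.16, chr1:90765923-90843971) had 111, 165 and 176 in sham and 104, 101.7 and 119 in ON-CR libraries. Sham mouse 1 lay within the ON-CR range, and the log2 fold change was -0.45 (SE 0.23, adjusted p = 0.372). ON-CR mouse 5 was the lowest of the 6 libraries for Col6a1, Col6a2 and Col6a3, as it was for Col1a1, Col1a2, Col3a1 and the fibroblast marker sum. Over the 29 collagen genes with a mean of at least 50, ON-CR mouse 5 was the lowest of the 6 libraries for 11 and the highest for 0, and sham mouse 3 was the highest for 13.

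The membrane-spanning collagens are held in the plasma membrane with their helix outside the cell. Col25a1 (ENSMUSG00000058897.17, chr3:130131501-130599877), whose product is made by neurons and binds amyloid, had 1097, 492 and 1045 in sham and 277, 762 and 221 in ON-CR libraries. ON-CR mice 4 and 6 were the lowest of the 6, and ON-CR mouse 5 lay above sham mouse 2. The log2 fold change was -1.20 (SE 0.43, adjusted p = 0.213), the lowest of the 42, and without ON-CR mouse 5 it was -1.74 (adjusted p = 0.0116). Col23a1 (ENSMUSG00000063564.13, chr11:51289920-51583918) had 1003, 604 and 1087 in sham and 521, 693 and 618 in ON-CR libraries. Sham mouse 2 lay among the ON-CR mice, as it did for Col25a1, and the log2 fold change was -0.52 (SE 0.21, adjusted p = 0.276). Col13a1 and Col17a1, the latter a component of the skin's anchoring junctions, had means of 23.0 and 4.18 over the 6 libraries and log2 fold changes of 0.13 and 0.13.

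The 9 fibril-associated genes encode chains with an interrupted helix that bind to the surface of other fibrils. Their median log2 fold change was 0.24, with 6 above 0 and 3 below. Col20a1 (ENSMUSG00000016356.18, chr2:180986535-181018363) had 19.1, 16.8 and 15.0 in sham and 40.9, 33.5 and 19.7 in ON-CR libraries. Each ON-CR value was above each sham value, ON-CR mouse 6 only just above sham mouse 1, and the log2 fold change was 0.80 (SE 0.40, adjusted p = 0.372). Its exons overlap the gene model BX649560.1 on the same strand. Col16a1, singled out after its values were seen as the 1 collagen outside the naming rule with an unadjusted p under 0.05, had 55.7 ± 18.5 in sham and 92.2 ± 18.6 in ON-CR nerves (SD, n = 3) and a log2 fold change of 0.75 (SE 0.31, adjusted p = 0.272). Col9a1 and Col9a2, chains of the type IX collagen that coats type II fibrils, had log2 fold changes of 0.31 (SE 0.35, adjusted p = 0.729) and -0.18 (SE 0.29, adjusted p = 0.822). Col12a1 and Col14a1, which coat type I fibrils in dense connective tissue, had log2 fold changes of 0.08 and -0.04, with 95% intervals of -0.42 to 0.58 and -0.78 to 0.71. Col9a3 had -0.16, Col22a1 had 0.24 and Col19a1 had 1.54, the last resting on 1 to 3 reads in sham libraries.

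Of the remaining genes, Col15a1 and Col18a1 encode collagens at the outer face of basement membranes, and the end of the Col18a1 chain is the source of endostatin. Col18a1 had 256 ± 39.1 in sham and 212 ± 68.3 in ON-CR nerves and a log2 fold change of -0.31 (SE 0.25, adjusted p = 0.603). Col15a1 had a log2 fold change of -0.12 (SE 0.34, adjusted p = 0.905). Col26a1 and Col28a1 had -0.09 and -0.46, and Col7a1, the anchoring fibril collagen of skin, Col10a1 of growth plate cartilage, Col6a5 and Col6a6 had log2 fold changes from -0.74 to 0.35, all with means under 10. Over the 19 collagen genes not singled out by the naming rule, log2 fold changes ran from -0.74 to 1.54 and the lowest adjusted p was 0.272. Of the 42, 12 have an exon that overlaps another gene model, which are, besides those given above, Col5a1, Col6a6, Col7a1, Col9a3, Col10a1, Col15a1 and Col22a1.

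Summed per kilobase, collagen expression was 2702, 2959 and 3231 in sham and 2803, 2009 and 2184 in ON-CR libraries. The mean was 2964 ± 264 in sham and 2332 ± 417 in ON-CR nerves (SD, n = 3), and ON-CR mouse 4 lay within the sham range. The 6 type IV chains made up 5.67, 5.40 and 5.77% of this sum in the sham libraries and 6.63, 7.34 and 8.18% in the ON-CR libraries. The share was 5.61% ± 0.190 in sham and 7.38% ± 0.779 in ON-CR nerves, without overlap. Fibrillar chains made up 51.1% ± 3.29 in sham and 48.5% ± 4.01 in ON-CR nerves, and the other chains 43.3% ± 3.14 and 44.1% ± 3.47, both with groups that overlap. The summed level of the type IV chains themselves was 166 ± 17.6 in sham and 171 ± 20.4 in ON-CR nerves. No test was run on these sums and shares, which are set largely by the few most abundant chains.

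**Figure D3:**
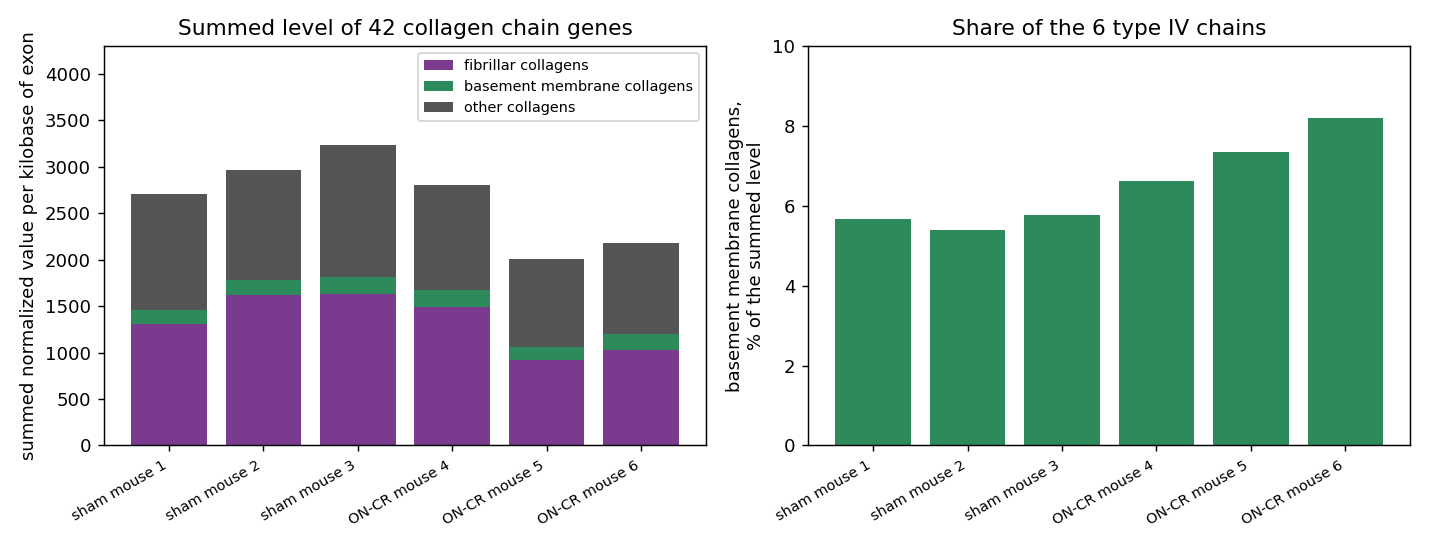
Left, summed normalized value per kilobase of exon of the 42 collagen chain genes in each library, stacked by class; right, the percentage of that sum from the 6 type IV chains. Each bar is 1 mouse. The sum is lowest in ON-CR mice 5 and 6, and the type IV share is above 6% in each ON-CR mouse and below 6% in each sham mouse.

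Ratios of 2 chains within a library, computed on value + 1, hardly depend on how the library was scaled where both values are far above 1. The ratio of Col8a1 to Col8a2 was 2.38, 3.24 and 1.85 in sham and 5.60, 5.32 and 5.88 in ON-CR libraries. The ON-CR ratios lay close together and above all sham ratios, with a difference of 1.21 on the log2 scale (exact two-sided permutation p = 0.1, the smallest that 3 against 3 allow, and 0.4 after Benjamini-Hochberg adjustment over the 8 ratios). The ratio of Col1a1 to Col1a2 was 0.582, 0.851 and 0.707 in sham and 0.576, 0.510 and 0.454 in ON-CR libraries. All ON-CR ratios were below all sham ratios, with ON-CR mouse 4 next to sham mouse 1, and the log2 difference was -0.46 (exact permutation p = 0.1, adjusted 0.4). The ratio of Col4a1 to Col4a2 was 1.70, 1.87 and 1.78 in sham and 2.27, 2.47 and 1.86 in ON-CR libraries (log2 difference 0.29, exact permutation p = 0.2, adjusted 0.533). The groups overlapped for this ratio and for the other 5. The log2 differences were 0.19 for Col5a1 to Col5a2, 0.13 for Col6a1 to Col6a2 and -0.04 for Col6a3 to Col6a1. They were 0.49 for Col9a1 to Col9a2 and 0.15 for Col3a1 to Col1a1. With 3 mice a group, no ratio could pass a threshold of 0.05.

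**Figure D4:**
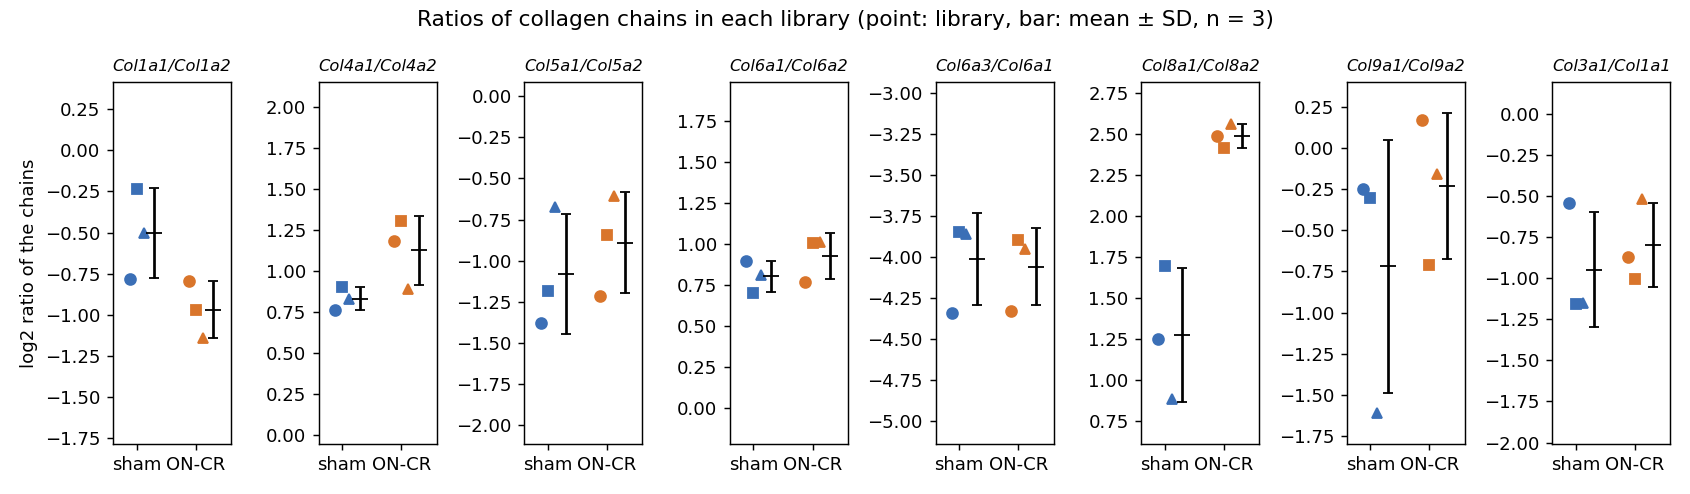
Log2 ratio of 2 collagen chains (value plus 1) in each library for 8 pairs, with sham in blue, ON-CR in orange and the mean ± SD (n = 3) in black; every panel spans the same number of log2 units. Sham and ON-CR libraries separate for Col1a1/Col1a2 and Col8a1/Col8a2 and overlap for the other 6.

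The enzymes, binding partners and receptors of collagens were counted in 7 lists of 88 genes, of which 87 were in the table. Of the 87, 3 passed the adjusted threshold (3.45%, against 2.1% of all genes), and the median log2 fold change was -0.18. Timp1, an inhibitor of the metalloproteinases that cut collagen, rose after ON-CR. Its values were 166, 135 and 165 in sham and 520.5, 433 and 566 in ON-CR libraries. The groups were far apart, with a log2 fold change of 1.70 (SE 0.17, adjusted p = 0.00150), and leaving out any single mouse kept the call. Timp2, an inhibitor of the same family, also rose. Its values were 1882, 1788 and 1765 in sham and 2735, 2334 and 2749.6 in ON-CR libraries, with every ON-CR value above every sham value and a log2 fold change of 0.52 (SE 0.11, adjusted p = 0.0426). Its call was lost without sham mouse 1 (adjusted p = 0.109), sham mouse 2 (0.206), sham mouse 3 (0.117), ON-CR mouse 4 (0.116) or ON-CR mouse 6 (0.204). Loxl1, which crosslinks elastin and collagen, fell after ON-CR. Its values were 271, 421 and 331 in sham and 198, 147 and 173 in ON-CR libraries, with every ON-CR value below every sham value and a log2 fold change of -0.96 (SE 0.20, adjusted p = 0.0403). Its call was lost without sham mouse 1 (adjusted p = 0.0621), sham mouse 2 (0.208), sham mouse 3 (0.121), ON-CR mouse 5 (0.0548) or ON-CR mouse 6 (0.192), and with scaling by library size alone (0.0656).

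In the folding list, which holds the prolyl and lysyl hydroxylases and chaperones, 0 of 20 genes passed, 5 were higher and 5 lower without overlap (10.5% and 11% of all genes), and the median was 0.00. P4ha3, a prolyl hydroxylase subunit, and P3h4, a partner of the lysyl hydroxylase, had the largest differences, with log2 fold changes of 0.75 (SE 0.29, adjusted p = 0.242) and -0.64 (SE 0.20, adjusted p = 0.150). For propeptide removal, 0 of 8 passed and the median was -0.35. Bmp1, the protease that trims the end of procollagen, had 325, 298 and 332 in sham and 496, 417 and 500.5 in ON-CR libraries and a log2 fold change of 0.56 (SE 0.14, adjusted p = 0.0783), and Pcolce2, which enhances that protease, had -0.76 (adjusted p = 0.108). For crosslinking, 1 of 7 passed, Loxl1, with a median of -0.30. Of 12 fibril-binding proteoglycans and glycoproteins, 0 passed, with a median of -0.25 and the extremes at Tnxb (0.82, adjusted p = 0.0745) and Aspn (-0.89, adjusted p = 0.277, and -1.12 to -0.46 when single mice were left out).

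Of 19 basement membrane partners, among them laminins, nidogens and perlecan, 0 passed, and the median was -0.17. Npnt, an integrin ligand of basement membranes, had 110.4, 65.5 and 109 in sham and 177, 183 and 200.4 in ON-CR libraries and a log2 fold change of 1.01 (SE 0.24, adjusted p = 0.0632), and Fras1 had -0.63 (adjusted p = 0.529), which ran from -0.98 to -0.21 when single mice were left out. Of 11 collagen receptors, 0 passed, and the median was -0.27. Lair1, an inhibitory collagen receptor of leukocytes, had 502, 551 and 452 in sham and 1033, 634 and 1109 in ON-CR libraries and a log2 fold change of 0.85 (SE 0.20, adjusted p = 0.0667). Mrc2, a receptor of fibroblasts that takes up collagen fragments, had a log2 fold change of -0.56 (SE 0.15, adjusted p = 0.0985), with groups that did not overlap. Of 10 genes of collagen breakdown and its inhibitors, 2 passed, the inhibitors Timp1 and Timp2, which rose, and the median was -0.17. The other 8 had log2 fold changes below 0, and 2 of them were lower without overlap (11% of all genes). These were Ctsk, at -0.76 (SE 0.19, adjusted p = 0.0743), and Mmp2, at -0.51 (SE 0.17, adjusted p = 0.180).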

How the data were processed

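Bulk RNA sequencing libraries of optic nerves from 6 mice were grouped by the sample labels. The authors aligned and counted reads with DRAGEN software and applied median normalization in Partek Flow (version 10.0, build mm10, per the submitters' processing notes). The deposited values are a normalized signal, estimated counts divided by 1 factor per library. Values were divided by the value of 1 read (0.885 to 1.06). Leaving out genes without reads and the most abundant genes of each library, between 68.8% and 71.0% were then whole reads (tolerance 0.02). For this reason no count model was run. The strand setting is not given in the sources used here. A floor of 3 reads was a value of 2.66 to 3.18 and covers counting error only.

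For each of the 25755 genes, log2(value + 1) was compared between groups in limma (version 3.58.1, R 4.3.3), using its trend option, and p-values were adjusted by Benjamini-Hochberg over all of them. A fold change on this scale understates that of low genes. Nothing states whether mice of a group were littermates, and p-values measure the spread between these mice. Chain ratios, computed on value + 1, were compared by exact two-sided permutation tests (SciPy 1.17.1). Levels per kilobase used exon lengths of GENCODE M21 (GRCm38), which also gave gene positions. Promoter windows are from RefSeq (GRCm38.p6).

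Collagen genes named with values were those past an adjusted p of 0.05, those with groups that do not overlap and a mean of at least 50, the 3 most abundant per kilobase and the 2 largest fold changes (mean of at least 10) of each class, and members of the ratios. Partner genes were those past the threshold, or else the largest difference in each direction of each list (mean of at least 50). The members and lists were chosen with earlier results of these data known. Alternatives were pseudocounts of 0.1 and 2, 3 other scalings, filters at 10, sample quality weights, a robust fit and each mouse left out. Leaving out mice 5 and 6 was added after the data were seen.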

Additional observations from a re-analysis of the deposited data

How the results depend on the processing

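The count of collagen genes past the adjusted threshold was 0 in 13 of 16 alternatives to the reported fit. It was 1 (Col8a1) with scaling by library size alone, and 0 to 2 when single mice were left out, with 2 (Col1a1 and Col3a1) without ON-CR mouse 4 and 1 (Col25a1) without ON-CR mouse 5. The median log2 fold change ran from -0.22 to 0.0055 over all collagen genes when single mice were left out, from -0.0035 to 0.23 over the fibrillar genes, from -0.34 to -0.075 over the basement membrane genes and from -0.30 to -0.024 over the others. Without mice 5 and 6, where the lone ON-CR mouse is assumed to vary like the sham mice, the median over all collagen genes was 0.11. The median of the other collagens was 0.065 with scaling by library size alone and -0.18 with sample quality weights. Scaling by library size alone turned Col4a1 to 0.019 and Col5a2 to 0.090, where the median of all genes was 0.15, against which they stood at -0.13 and -0.06. Col5a2 was 0.022 with sample quality weights, 0.027 without ON-CR mouse 5, 0.040 without ON-CR mouse 6 (-0.18 to 0.040 over all single mice) and 0.25 without mice 5 and 6. Col4a1 ran from -0.23 to 0.028 when single mice were left out, the latter without ON-CR mouse 5, and was 0.12 without mice 5 and 6, Col1a2 was 0.11 without mice 5 and 6, and Col9a2 ran from -0.43 to 0.041, the latter without sham mouse 3. The log2 ratio of Col6a3 to Col6a1 ran from -0.21 to 0.092 over the mice left out, with 0.040 without sham mouse 2, 0.034 without sham mouse 3 and 0.092 without ON-CR mouse 4. The call of Timp1 was lost without mice 5 and 6 alone (adjusted p = 0.153, limma). Of 39 named genes, 35 kept their direction in every setting, and the cause of the other changes was not tested. No paired analysis was possible because the mice carry different numbers in the groups. Low counts limit the 7 scarcest collagens, for which a few reads set the fold change.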
